A study of Mus musculus with 24 samples.

Results

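The genes described here are 10 regulators of early mesoderm and endoderm, namely the ligand Nodal, its antagonists Lefty1 and Cer1, the primitive streak factors Eomes, Gsc and Mixl1, and the endoderm factors Foxa2, Sox17, Gata4 and Gata6. They were read from all probe sets that the array's annotation assigns to 1 of these symbols, which gave 10 of the 18193 genes with a probe set of their own and 17 of the 45101 probe sets of the array. Eomes, Nodal, Cer1, Sox17 and Gata4 have 2 probe sets each, Gata6 has 3, and Gsc, Mixl1, Foxa2 and Lefty1 have 1. No value entered the choice of probe sets.

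RNA was measured on 24 mouse arrays, 3 in each of 8 groups. P19 cells are a mouse embryonal carcinoma line, and MEFs are fibroblasts of mouse embryos, here from Myod-/-/Myf5-/- mice, so that the MEF controls lack these 2 muscle factors as well. Cells received a lentivirus carrying MyoD, the factor that starts the skeletal muscle programme, or NeuroD2, a related basic helix-loop-helix factor of neurons, and the controls were untransduced. The study asked how these factors act in cells of different origin, and the groups are read from the sample titles. Batch 1 held P19 controls, P19 cells with MyoD, MEF controls and MEFs with MyoD. Batch 2 held MEF controls and MEFs labelled NeuroD2, and batch 3 held P19 controls and P19 cells with NeuroD2. Infection was done with 8 µg/ml polybrene, and the virus was replaced by fresh medium after 24 hours. P19 cells with MyoD or NeuroD2 were collected at 72 hours. MEFs with MyoD were given a differentiation medium low in serum, with insulin and transferrin, at 48 hours and were collected 36 to 40 hours after that, so virus, medium and MyoD cannot be told apart there. When the controls and the MEFs labelled NeuroD2 were collected is not stated in the labels. No group with an empty virus was analysed here, so the virus and its cargo cannot be told apart in any group. The labels do not say that replicates were separate cultures, so p-values measure the spread between these samples, which may be technical.

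Nodal is a secreted ligand of the TGF-beta family that acts through activin receptors and the co-receptor Tdgf1 on the mediators Smad2 and Smad3. In the embryo this signal, with the DNA-binding partner Foxh1, switches on Nodal itself, its inhibitors Lefty1 and Cer1, and the factors Eomes, Mixl1 and Gsc in the primitive streak, the region where mesoderm and endoderm are laid down. Foxa2 and Sox17 then mark and drive definitive endoderm, while Gata4 and Gata6 act in extraembryonic endoderm and in heart mesoderm. Pluripotent cells in culture commonly express Nodal and Lefty genes, whereas fibroblasts are not known for this pathway.

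Values are log2 signal intensities as deposited, and probe sets have different affinities, so levels are compared only between samples and never between probe sets. The upper and lower quartiles of 23 arrays lay at 8.23 to 8.39 and 4.47 to 4.58. For P19 control replicate 2 of batch 1 they lay at 7.62 and 4.79, and this array stood apart from its own group in correlation too (0.916 against 0.956 or more), and where leaving it out changed the call of a member, the value without it is also given. It widens the spread that all groups share, so it also bears on comparisons it is not part of. Myod1 rose by 3.94 in P19 cells and by 5.55 in MEFs with MyoD on 1 of its 2 probe sets, and Neurod2 rose by 1.70 in P19 cells with NeuroD2 on 1 of 3. In MEFs labelled NeuroD2 the 3 Neurod2 probe sets differed from control by -0.06, 0.21 and -0.12 (limma adjusted p = 0.952, 0.710 and 0.814), so that group is called by its label. Its 4 neuron markers averaged 5.94 to 6.05 against 5.28 to 5.55 in its controls. Among the 4, Tubb3, a tubulin of neurons, differed most, with a mean of 8.19 against 6.37. Elavl3 had a mean of 5.94 against 5.49 and Dcx 4.30 against 4.21, while Stmn2 did not rise. The mean of 6 pluripotency markers lay at 9.91 to 10.76 on the P19 arrays and at 4.53 to 4.93 on the MEF arrays. The mean of 7 fibroblast markers lay at 10.80 to 12.55 on the MEF arrays and at 5.66 to 7.14 on the P19 arrays. Samples with MyoD carry a label of neuronal differentiation, but in P19 cells with MyoD 4 neuron markers averaged 8.06 to 8.12, against 8.19, 7.40 and 8.30 in their controls. The 7.40 was the array that stood apart, and the MyoD arrays lay below the other controls. In the same cells 4 muscle markers averaged 9.21 to 9.26 against 6.30 to 6.61.

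Upstream sequence was held for 5 of the 10 genes (RefSeq, GRCm38.p6). It is shown for the ligand Nodal, its antagonist Cer1 and the streak factors Eomes and Gsc, the members with a single annotated start, because the last 3 fell with MyoD in P19 cells and Nodal gave the lowest adjusted p with NeuroD2. Each run is the 250 bases before the start, 5′ to 3′, with motif matches in capitals, from chr10:61417722-61417971 (plus strand) for Nodal, chr4:82885152-82885401 (minus strand) for Cer1, chr9:118477939-118478188 (plus strand) for Eomes and chr12:104473237-104473486 (minus strand) for Gsc.
Nodal: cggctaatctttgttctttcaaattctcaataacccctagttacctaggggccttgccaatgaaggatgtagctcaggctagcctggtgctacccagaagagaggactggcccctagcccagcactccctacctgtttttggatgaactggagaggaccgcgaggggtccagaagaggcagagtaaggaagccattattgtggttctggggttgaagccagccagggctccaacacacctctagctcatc
Cer1: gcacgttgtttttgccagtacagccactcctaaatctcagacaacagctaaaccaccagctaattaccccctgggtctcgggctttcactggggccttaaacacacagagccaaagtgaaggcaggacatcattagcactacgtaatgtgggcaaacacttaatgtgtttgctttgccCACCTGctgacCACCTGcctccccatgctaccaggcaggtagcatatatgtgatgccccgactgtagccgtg
Eomes: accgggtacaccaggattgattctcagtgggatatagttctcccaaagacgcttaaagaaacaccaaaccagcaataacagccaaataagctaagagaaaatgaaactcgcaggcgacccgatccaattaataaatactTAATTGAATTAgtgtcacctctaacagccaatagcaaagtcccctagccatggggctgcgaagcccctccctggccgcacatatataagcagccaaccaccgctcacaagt
Gsc: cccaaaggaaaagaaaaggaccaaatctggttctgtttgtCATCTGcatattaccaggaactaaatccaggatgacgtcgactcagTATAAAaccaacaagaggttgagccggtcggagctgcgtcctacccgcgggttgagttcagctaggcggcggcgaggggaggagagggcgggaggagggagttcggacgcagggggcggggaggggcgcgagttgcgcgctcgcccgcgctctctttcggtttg

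Each window was searched on both strands for 8 motifs. The E-box, the hexamer that basic helix-loop-helix factors such as MyoD and NeuroD2 recognise, was searched as CAGCTG, which its own reverse strand repeats, and also as CAGGTG and as CAGATG. The others were a FOXH1 motif (AATNCACA), a SMAD motif (GTCTAGAC), a T-box motif (AGGTGTGA), a paired homeodomain motif of a TAAT and an ATTA with a gap of 3 bases, and a TATA box (TATAAA). The E-box CAGGTG and the T-box motif share letters and could overlap in a sequence. Cer1 held CAGGTG in 2 places, read as CACCTG on the printed strand, at 72 to 67 and 61 to 56 bases before the start. Of 32851 promoters of this length in the table, 17.2% held this E-box. Gsc held CAGATG, read as CATCTG, at 210 to 205 bases and TATAAA at 164 to 159 bases before the start, which 14.4% and 12.4% of the promoters held. Eomes held the paired homeodomain motif at 111 to 101 bases before the start, a match found in 0.463% of the promoters, and the motif is of the kind that Gsc and Mixl1 proteins are known to bind. The Nodal window held none of the 8, which says only that these letters are not in those 250 bases. The other motifs were found in 13% (CAGCTG), 3.18% (FOXH1), 0.167% (SMAD) and 1.12% (T-box) of the promoters. Foxa2 has 3 annotated starts, 1 of which held TATAAA. No binding was measured, so these matches are a description of the sequences. Of the genes not printed, Lefty1 (chr1:180935022-180938401) and Mixl1 (chr1:180693043-180697034) lie near each other on chromosome 1, Sox17 lies at chr1:4490928-4497426, Foxa2 at chr2:148042877-148046969 and Gata4 at chr14:63198914-63271712.

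The untransduced cells of batch 1 were compared first. The Nodal ligand, Lefty1 and Eomes were high in P19 cells and low in MEFs, Gsc and Foxa2 followed in the same direction, and Gata4 and Gata6 gave no call. Nodal read 10.19, 9.15 and 10.22 on the P19 control arrays and 5.31, 5.15 and 5.31 on the MEF control arrays (1422058_at), a difference of -4.59 ± 0.352 (log2, SE, n = 3 per group, limma adjusted p = 9.67e-10). Its second probe set, 1422057_at, differed by -4.05 (adjusted p = 6.81e-10). The groups did not overlap on either, and the differences were -4.94 and -4.37 without the array that stood apart. In whole cultures such as these, fewer cells that express a gene and less RNA per cell cannot be told apart.

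Lefty1, which blocks Nodal at its receptors, read 10.58, 10.80 and 10.27 in P19 controls and 6.13, 6.07 and 6.36 in MEF controls, a difference of -4.36 ± 0.344 (adjusted p = 1.51e-09). Cer1, a secreted protein that binds Nodal directly, differed less, by -0.73 ± 0.171 on 1450257_at and by -0.58 ± 0.109 on 1450256_at (adjusted p = 0.00154 and 0.000187). For all 3 probe sets of the antagonists, every P19 control array lay above every MEF control array. The share of all probe sets apart in this way within batch 1 is not given here, and 42.8% of them were called in this comparison.

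Eomes, the T-box factor that prepares both streak mesoderm and definitive endoderm, read 9.97, 8.73 and 10.09 against 6.65, 6.30 and 7.01 on 1435172_at, a difference of -2.94 ± 0.299 (adjusted p = 6.62e-08). The other Eomes probe set, 1426001_at, differed by -2.38. Gsc, the homeodomain repressor of the organizer, read 6.49, 7.41 and 6.26 in P19 controls and 4.20, 4.08 and 4.22 in MEF controls, a difference of -2.55 ± 0.372 (adjusted p = 9.17e-06). These groups were apart on every array. Mixl1, a homeodomain factor of the streak, differed by -0.69 ± 0.212 (adjusted p = 0.0121), and its groups overlapped only through the P19 control array that stood apart, at 5.27. Without that array the Mixl1 difference was -0.97.

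Among the endoderm factors, Foxa2, a forkhead factor of endoderm and the node, read 6.49, 6.62 and 6.41 against 5.32, 5.25 and 5.14, a difference of -1.27 ± 0.172 (adjusted p = 3.54e-06). Sox17, an HMG-box factor of endoderm, gave -1.19 ± 0.386 on 1421657_a_at (adjusted p = 0.0173), but 1 array carried most of it. That array, P19 control replicate 2, read 8.11 where the others read 5.84 and 5.59, and the difference without it was -0.39 (adjusted p = 0.0369). On 1429177_x_at Sox17 differed by -0.57 (adjusted p = 0.0408), and by -0.84 without the array. Both Sox17 probe sets are of designs that can match several transcripts. The 2 Gata4 probe sets differed by -0.13 and -0.23 and the 3 Gata6 probe sets by 0.17, 0.00 and -0.52, none of them called (adjusted p = 0.0949 to 0.985).

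In all, 12 of the 17 probe sets (8 of the 10 genes) were lower in MEFs and 0 higher, with a median of -0.73 against -0.08 over all probe sets. The background is high in this comparison, since 42.8% of all 45037 probe sets tested were called and 20.5% were lower. The same 12 were called without the array that stood apart. Mixl1 and the 2 Sox17 probe sets lost their calls when only the 6 arrays of these groups were fitted (adjusted p = 0.141 to 0.292). Without MEF control replicate 1 they had adjusted p = 0.051 to 0.0739, without P19 control replicate 1 Mixl1 had 0.0724 and Sox17 1429177_x_at 0.161, and that probe set also missed without P19 control replicate 3 or MEF control replicates 2 and 3 (0.108, 0.116 and 0.0665). Gata6 1443081_at was called lower without P19 control replicate 1 or 3 (adjusted p = 0.0148 and 0.0186), which leaves the array that stood apart, at 5.98 against 4.48 and 4.52, a larger share of the mean.

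Across all 24 arrays the separation of the 2 cell types held for 7 probe sets of 5 genes, on which each of the 12 P19 arrays read higher than each of the 12 MEF arrays. Of all probe sets, 7.42% were apart in this way. The 7 were both probe sets of Nodal and Eomes, Lefty1, Foxa2 and Cer1 1450256_at. For Nodal 1422058_at the P19 arrays ran from 8.85 to 11.09 with a median of 9.58, and the MEF arrays from 4.99 to 5.65 with a median of 5.31. For Lefty1 they ran from 9.56 to 11.32 and from 6.07 to 6.93. For Eomes 1435172_at they ran from 8.23 to 10.98 and from 5.25 to 7.01. Foxa2 came closest to overlap, with a lowest P19 array at 5.63 and a highest MEF array at 5.56. The other 10 probe sets overlapped between the cell types, and those of Gata4 had medians of 5.50 and 4.55 in P19 cells and 5.56 and 4.64 in MEFs. For 4 probe sets (Sox17 1429177_x_at, Gata4 1418864_at, Gata6 1443081_at and Cer1 1450256_at) no group mean rose above 5.81, the median of all values, so low signals there are close to the floor of the array. The same held for Sox17 1421657_a_at without the array that stood apart (highest group mean 5.71). Gata4 1418863_at passed 5.81 only in MEFs with MyoD (6.01), and Mixl1 only in P19 controls and P19 cells with NeuroD2.

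**Figure D1:**
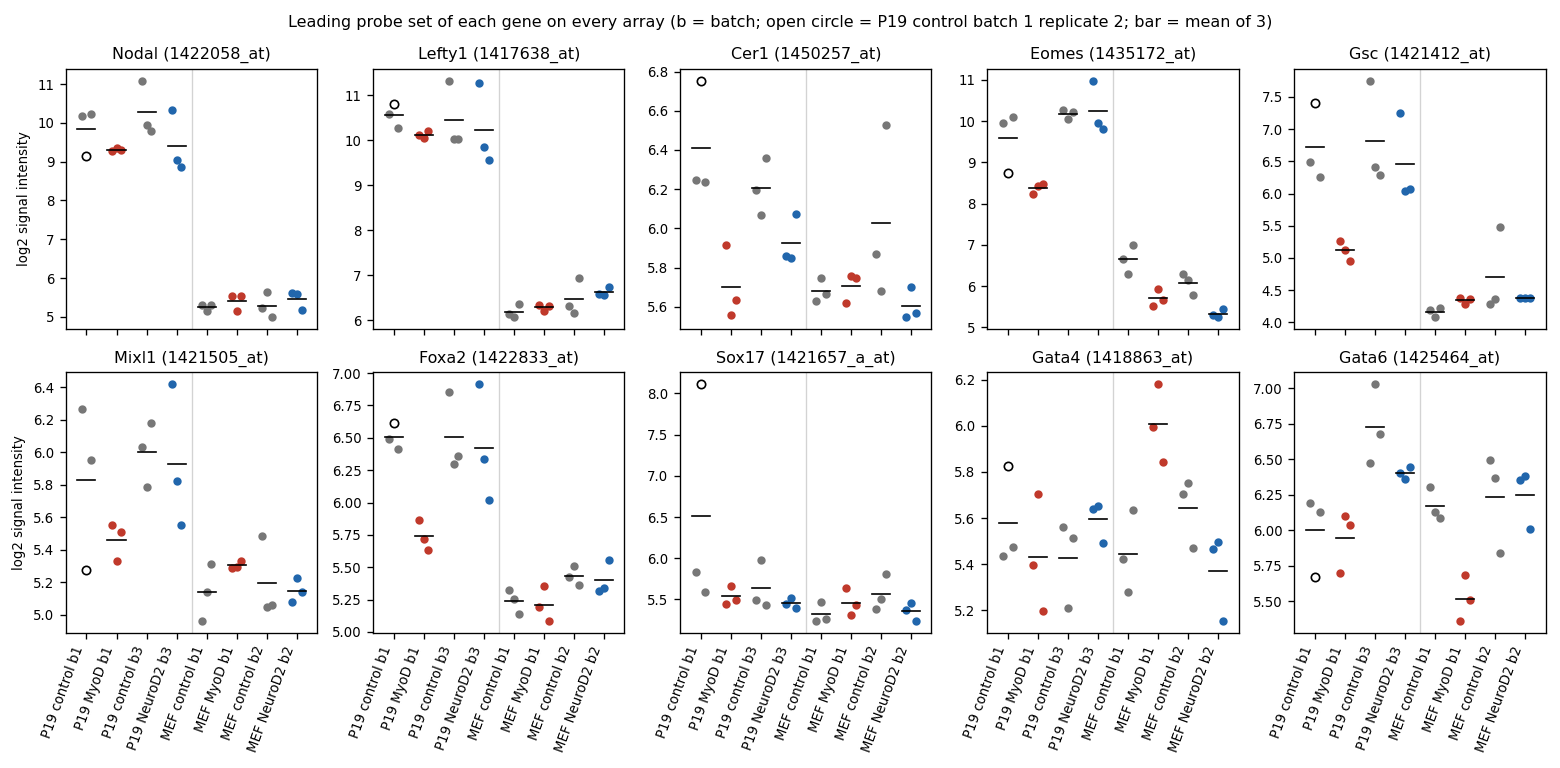
The log2 signal of the leading probe set of each of the 10 genes (y axis, own scale per panel) is plotted for every array of the 8 groups (x axis, b = batch); grey points are controls, red MyoD, blue NeuroD2, bars are means of 3 arrays, and the open circle is P19 control replicate 2 of batch 1. Nodal, Lefty1, Eomes and Foxa2 are higher on every P19 array than on every MEF array, and the open circle of Sox17 stands at 8.11 while all other Sox17 points lie below 6.

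The order of the 8 groups was read from the means without the array that stood apart. Nodal 1422058_at ran from P19 controls of batch 3 (10.28) and batch 1 (10.20) through P19 cells with NeuroD2 (9.41) and with MyoD (9.31) to the 4 MEF groups (5.26 to 5.46). Neighbours in this order overlapped except at the step from P19 cells to MEFs. Eomes 1435172_at ran from P19 cells with NeuroD2 (10.25) and the controls of batch 3 (10.18) and batch 1 (10.03), which overlapped, to P19 cells with MyoD (8.37), which overlapped no other group. Its MEF groups followed at 6.65, 6.07, 5.71 and 5.33, with an overlap only between the controls of batch 2 and MEFs with MyoD. Foxa2 and Gsc had the same 3 P19 groups on top (6.42 to 6.50 for Foxa2 and 6.38 to 6.82 for Gsc) with P19 cells with MyoD below them at 5.74 and 5.12. For Gsc, 1 MEF control of batch 2 at 5.48 overlapped P19 cells with MyoD. Gata4 1418863_at had MEFs with MyoD on top (6.01) and no overlap with the next group, and Gata6 1425464_at had the controls of batch 3 on top (6.73) and MEFs with MyoD at the bottom (5.52), both apart from their neighbours.

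**Figure D2:**
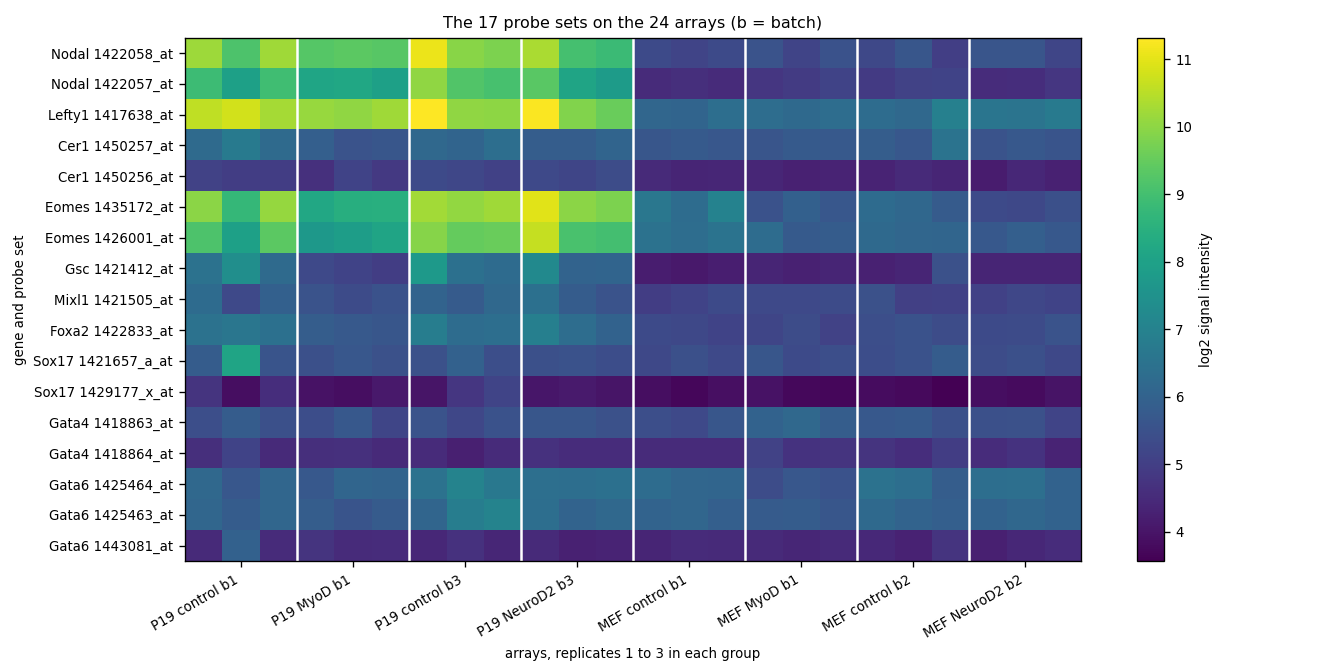
The log2 signal (colour) of all 17 probe sets (y axis) is shown on the 24 arrays (x axis, replicates 1 to 3 of each group from left to right, b = batch). The P19 arrays of Nodal, Lefty1 and Eomes stand out against the MEF arrays, and the first array of each P19 group of batch 3 is brightest for Lefty1, at 11.32 and 11.27.

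P19 cells with MyoD had 4 of these genes lower than their controls and none higher. Eomes fell by 1.23, Gsc by 1.60, Foxa2 by 0.77 and Cer1 by 0.71 on the log2 scale. Only 0.384% of all probe sets were lower in this comparison and 2.08% called in either direction, while 4 of the 17 members were lower. The median of the members was -0.43 and that of all probe sets 0.01. This comparison, that of the cell types and that of the P19 batches use the same P19 controls of batch 1.

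Eomes 1435172_at read 9.97, 8.73 and 10.09 in P19 controls and 8.23, 8.42 and 8.47 with MyoD. Every MyoD array was below every control array, the nearest control being the array that stood apart. The difference was -1.23 ± 0.299 (log2, SE, n = 3 per group, limma adjusted p = 0.0354), and -1.66 ± 0.247 without that array (adjusted p = 0.000335). The second probe set, 1426001_at, read 9.16, 7.96 and 9.35 against 7.70, 7.89 and 8.11. It was not called with all arrays (-0.93, adjusted p = 0.132) and was called without the array (-1.36, adjusted p = 0.0152).

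Gsc moved the other way when that array was left out. It read 6.49, 7.41 and 6.26 in controls and 5.26, 5.13 and 4.96 with MyoD, so the groups were apart on every array. The difference of -1.60 ± 0.372 was called (adjusted p = 0.0267), and -1.26 without the array missed the threshold (adjusted p = 0.0878). Mixl1, the other homeodomain factor of the streak, read 6.26, 5.27 and 5.95 against 5.55, 5.33 and 5.51. Its difference of -0.37 was not called (adjusted p = 0.236), and without the array, which was the lowest control, it was -0.65 (adjusted p = 0.0744) with groups that did not overlap.

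Foxa2 gave the call that changed least with the array. It read 6.49, 6.62 and 6.41 in controls and 5.86, 5.72 and 5.63 with MyoD, a difference of -0.77 ± 0.172 (adjusted p = 0.0213) with all arrays and -0.71 ± 0.184 (adjusted p = 0.0402) without it. Sox17 1421657_a_at was not called (-0.98, adjusted p = 0.146), and its difference was -0.18 without the array that read 8.11. The second Sox17 probe set differed by -0.42 (adjusted p = 0.202), and the Gata4 and Gata6 probe sets by -0.39 to -0.05 (adjusted p = 0.262 to 0.847).

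For the ligand and its antagonists the picture was mixed. Nodal 1422058_at read 10.19, 9.15 and 10.22 in controls and 9.27, 9.36 and 9.31 with MyoD, so the MyoD arrays lay below 2 of the controls and above the third. Its difference was -0.54 (adjusted p = 0.284), and -0.89 ± 0.345 without the array (adjusted p = 0.254). On 1422057_at it was -0.50 and -0.82 (adjusted p = 0.252 and 0.197). Lefty1 read 10.58, 10.80 and 10.27 against 10.11, 10.04 and 10.20, and these groups did not overlap, yet the difference of -0.43 ± 0.344 was not called (adjusted p = 0.373). Cer1 1450257_at read 6.25, 6.75 and 6.24 against 5.92, 5.56 and 5.63. It was called at -0.71 ± 0.171 (adjusted p = 0.0341) and missed without the array at -0.54 (adjusted p = 0.104), while its second probe set differed by -0.13 (adjusted p = 0.385).

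The counts in this comparison rest on few arrays. Without P19 MyoD replicate 2 the 4 called probe sets had adjusted p = 0.0766 to 0.138, and without replicate 3 they had 0.107 to 0.156. Without replicate 1 Eomes and Gsc missed (0.143 and 0.077), and with only the 6 arrays of the 2 groups in the fit all 4 did (0.306 to 0.653). Sox17 1421657_a_at was called without P19 control replicate 1 or 3 (0.0319 and 0.0189), which leaves the array at 8.11 among 2 controls. Against the P19 controls of batch 3 the members lower numbered 7 of 17, with 4.56% of all probe sets lower, and Cer1 was not among them (adjusted p = 0.0793). When the array that stood apart was left out, 3 of 17 were lower, both Eomes probe sets and Foxa2, where 1% of all probe sets were lower. All 7 listed fibroblast markers were measured and averaged 6.24 to 6.66 in P19 controls and 5.66 to 5.75 with MyoD, and the 7 markers of parietal or visceral endoderm 6.31 to 6.60 and 6.23 to 6.29. The 6.24 and the 6.60 came from the array that stood apart, and the other controls had 6.39 and 6.31 for endoderm. Of the endoderm markers Lama1 rose from a mean of 7.38 to 8.09, while the others had lower means with MyoD. The part of these in the result was not tested.

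**Figure D3:**
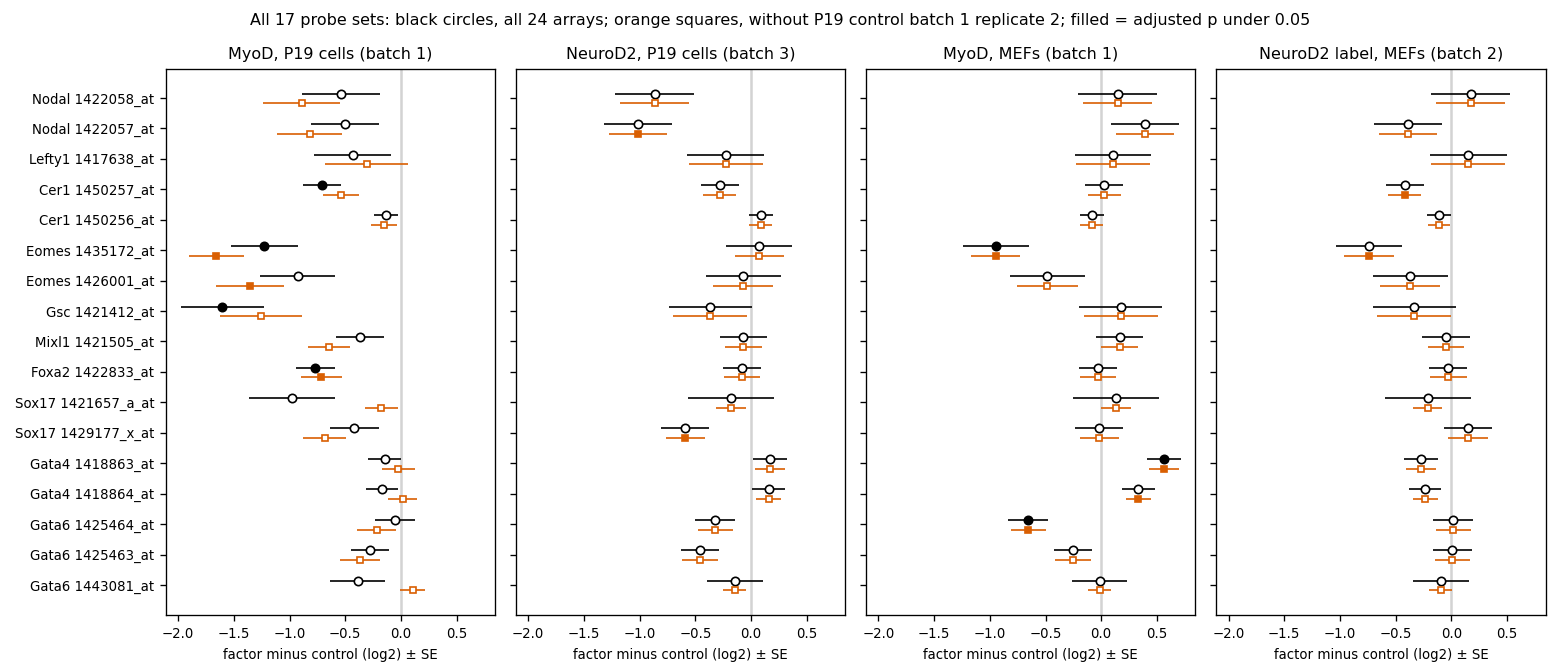
The difference between factor and control (x axis, log2 ± SE) is shown for all 17 probe sets (y axis) in the 4 comparisons of a factor with the controls of its batch; black circles use all 24 arrays, orange squares leave out P19 control replicate 2 of batch 1, and filled symbols have a limma adjusted p under 0.05. MyoD in P19 cells has 4 filled black circles, all below 0, MyoD in MEFs has 3, and both NeuroD2 panels have none.

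NeuroD2 in P19 cells gave no call among the 17 probe sets by limma with all arrays, where 6.12% of all probe sets were called. At an unadjusted p under 0.05, 4 of the 17 passed, all lower, and 7.22% of all probe sets were lower at that level. The median of the members was -0.18 and that of all probe sets -0.03. Nodal came nearest. Its probe set 1422057_at read 10.03, 9.20 and 9.07 in controls and 9.33, 8.11 and 7.82 with NeuroD2, a difference of -1.02 ± 0.304 (limma adjusted p = 0.0523). The other, 1422058_at, read 11.09, 9.95 and 9.79 against 10.34, 9.03 and 8.85, a difference of -0.87 ± 0.352 (adjusted p = 0.205). The groups overlapped on both, because the highest NeuroD2 array read above the lowest controls.

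The overlap came from the arrays numbered 1. For both probe sets of Nodal and of Eomes, and for Lefty1, Gsc and Foxa2, the array numbered 1 was the highest of the 3 in the control group and in the NeuroD2 group. Lefty1 read 11.32, 10.02 and 10.02 in controls and 11.27, 9.85 and 9.56 with NeuroD2, a difference of -0.23 (adjusted p = 0.909). Gsc read 7.75, 6.42 and 6.29 against 7.25, 6.03 and 6.08 (-0.37, adjusted p = 0.807). Foxa2 read 6.86, 6.30 and 6.36 against 6.91, 6.34 and 6.02 (-0.08, adjusted p = 0.952).

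For Eomes the step was seen mainly with NeuroD2. Its probe set 1435172_at read 10.26, 10.06 and 10.21 in controls, close together, and 10.98, 9.96 and 9.81 with NeuroD2 (0.07, adjusted p = 0.981). Other members did not share that pattern. Sox17 1429177_x_at read 4.04, 4.14 and 4.01 with NeuroD2 and 4.80 and 5.16 on the controls numbered 2 and 3, while the control numbered 1 read below every NeuroD2 array (-0.59, adjusted p = 0.143). Gata6 1425463_at read 6.09, 6.84 and 7.02 against 6.37, 6.02 and 6.19 (-0.46, adjusted p = 0.152), again with a low control numbered 1.

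Without both arrays numbered 1, an alternative added after their values were seen, 3 of 17 probe sets were lower, as were 2.25% of all probe sets. The 3 were Nodal 1422057_at (-1.17, limma adjusted p = 0.00302), Sox17 1429177_x_at (-0.91, adjusted p = 0.01) and Gata6 1425463_at (-0.83, adjusted p = 0.000691). Without the P19 control of batch 1 that stood apart, which is in neither group but widens the shared spread, Nodal 1422057_at and Sox17 1429177_x_at were called (adjusted p = 0.00946 and 0.0238), where 16.1% of all probe sets were. Leaving out single arrays of these groups also made calls, all lower. Without control replicate 1 they were Sox17 1429177_x_at (0.00323) and Gata6 1425463_at (0.0012), without control replicate 3 Nodal 1422057_at (0.0422), and without NeuroD2 replicate 1 both Nodal probe sets (0.0152 and 0.000847). The control numbered 1 also had 6.31 for the mean of 7 fibroblast markers against 7.14 and 7.10 on the other controls, and 5.57 for 4 muscle markers against 6.42 and 6.42. Over the 3 endothelium markers it had 4.77 against 5.34 and 5.43. Between the groups, the 4 neuron markers averaged 8.03 to 8.30 in controls and 10.54 to 11.28 with NeuroD2, and the 4 muscle markers 5.57 to 6.42 and 6.46 to 7.01. The endothelium markers averaged 4.67 to 4.76 with NeuroD2, below all 3 controls (the lowest at 4.77), and the fibroblast markers 6.93 to 7.07, within the range of the controls. The fibroblast, muscle and endothelium markers were mixed by gene. Col3a1 rose from 7.56 to 8.86, Pdgfrb from 6.68 to 7.73, Col1a1 from 6.31 to 7.04 and Col1a2 from 7.77 to 8.12. Thy1 fell from 6.56 to 5.40, Twist1 from 8.21 to 7.48 and Prrx1 from 4.86 to 4.53. Actc1 rose from 8.76 to 10.29 and Myh3 from 4.91 to 5.87, but Myog (5.14 and 5.12) and Tnnc2 (5.74 and 5.34) did not rise. Tek fell from 6.09 to 4.69 and Pecam1 from 4.54 to 4.31, but Cdh5 went from 4.91 to 5.13. The part of these in the result was not tested.

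**Figure D4:**
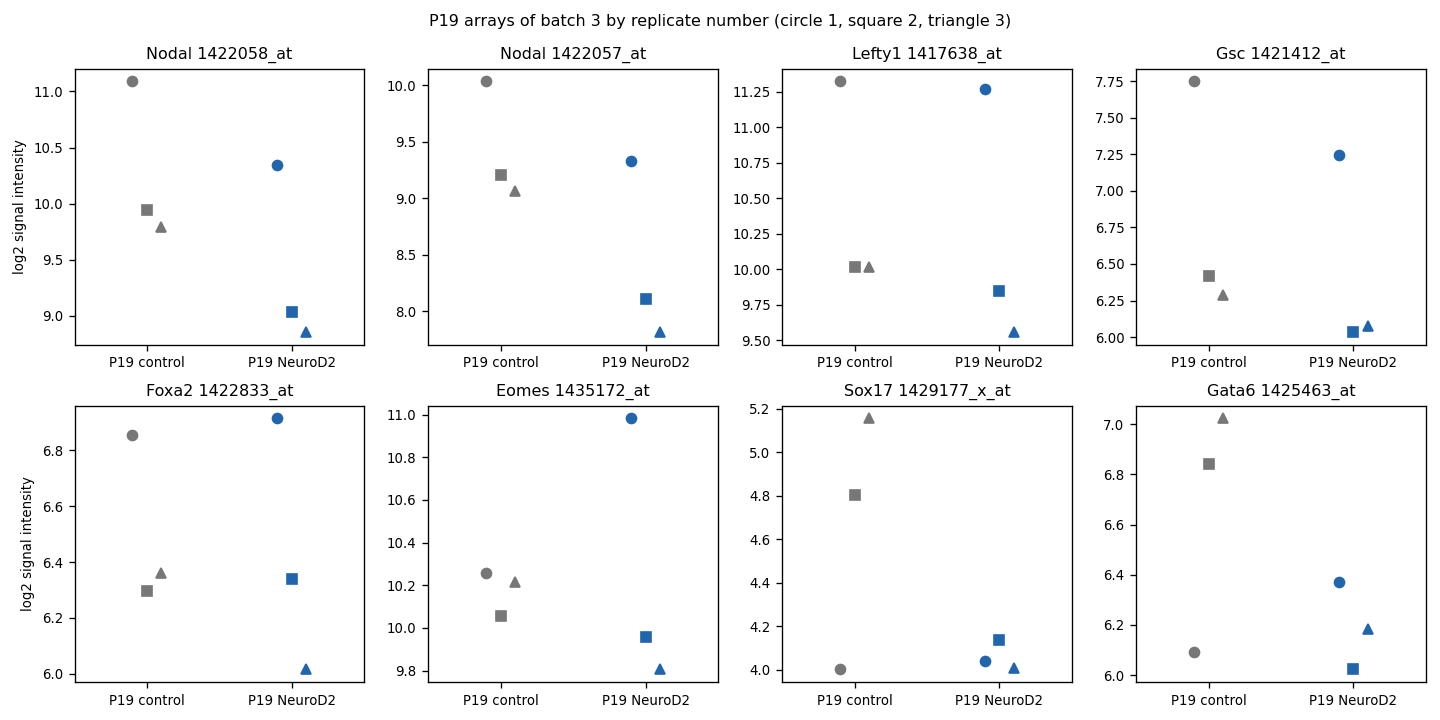
The log2 signal (y axis, own scale per panel) of 8 probe sets is plotted for P19 controls and P19 cells with NeuroD2 of batch 3, with a circle, a square and a triangle for the arrays numbered 1, 2 and 3. The circle is the highest point of both groups for Nodal, Lefty1, Gsc, Foxa2 and Eomes, and the circle of the controls is the lowest of its group for Sox17 and for Gata6, where it stands at 6.09 against 6.84 and 7.02.

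MyoD in MEFs was followed by a rise of Gata4 and by falls of Eomes and Gata6. Of the 17 probe sets, 1 was higher and 2 lower, while 8.68% of all probe sets were higher and 11.1% lower, so the members were called about as often as the rest of the array (19.7% in either direction). Gata4, a zinc finger factor of heart and endoderm, read 5.42, 5.28 and 5.63 in controls and between 5.84 and 6.18 on the 3 arrays with MyoD on 1418863_at. These groups did not overlap, and the rise was 0.56 ± 0.151 (log2, SE, n = 3 per group, limma adjusted p = 0.0096). The other Gata4 probe set, 1418864_at, read 4.51, 4.51 and 4.54 against 5.11, 4.71 and 4.74, also without overlap, and missed the threshold (0.33, adjusted p = 0.134). Of 14 alternatives 3 called it, with the lowest adjusted p at 0.00644, and leaving out the P19 control that stood apart was one of them (adjusted p = 0.0276).

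Gata6, the related factor that drives primitive endoderm, read 6.31, 6.13 and 6.09 in MEF controls and 5.36, 5.68 and 5.51 with MyoD on 1425464_at, a difference of -0.66 ± 0.179 (adjusted p = 0.0104). Its other probe sets differed by -0.26 and -0.01 (adjusted p = 0.417 and 0.993). Eomes 1435172_at read 6.65, 6.30 and 7.01 in controls and 5.51, 5.94 and 5.67 with MyoD, apart on every array, a difference of -0.95 ± 0.299 (adjusted p = 0.0282). Its second probe set differed by -0.48 (adjusted p = 0.447). Nodal, Lefty1, Cer1, Gsc, Mixl1, Foxa2 and Sox17 differed by -0.09 to 0.39 and none was called (adjusted p = 0.52 to 0.988).

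Single arrays ended each of these calls. Gata4 1418863_at missed without MEF control replicate 2 or MEF MyoD replicate 2 (adjusted p = 0.063 and 0.0644), and Gata6 1425464_at without MEF control replicate 1 or MEF MyoD replicate 1 (0.0553 and 0.0575). Eomes 1435172_at missed without MEF control replicate 1 or 3 (0.0735 and 0.143) and without MEF MyoD replicate 1 or 3 (0.109 and 0.0794). Over the same arrays the 4 muscle markers averaged 4.76 to 5.02 in controls and 13.69 to 13.82 with MyoD, and the 7 fibroblast markers 12.24 to 12.36 and 10.80 to 10.91. The part of these in the result was not tested.

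MEFs labelled NeuroD2 gave no call by limma with all arrays, where 9.65% of all probe sets were called, and 2 of the 17 members, both lower, had an unadjusted p under 0.05, as 8.28% of all probe sets did in that direction. Eomes 1435172_at read 6.29, 6.15 and 5.78 in controls and 5.30, 5.25 and 5.46 in the labelled group, without overlap, a difference of -0.74 ± 0.299 (adjusted p = 0.159). Cer1 1450257_at read 5.87, 5.68 and 6.53 against 5.55, 5.70 and 5.57, with overlap, a difference of -0.42 ± 0.171 (adjusted p = 0.167). Both were called when the P19 control that stood apart was left out of the shared spread (adjusted p = 0.0191 and 0.0484), where 20.7% of all probe sets were called, and Cer1 also without MEF control replicate 2 of batch 2 (0.045). Gsc read 4.28, 4.36 and 5.48 in controls and 4.37, 4.38 and 4.37 in the labelled group. The third control was high for Gsc, Cer1 and Lefty1 (6.93 against 6.31 and 6.17). Nodal differed by 0.17 and -0.39 on its 2 probe sets (adjusted p = 0.92 and 0.648).

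The controls of different batches were compared to see how far the members move without a factor. In P19 controls Gata6 was higher in batch 3 than in batch 1 on 2 of its 3 probe sets, while 9.1% of all probe sets were higher and 11.9% called. On 1425464_at it read 6.48, 7.03 and 6.68 against 6.20, 5.67 and 6.13, a difference of 0.73 ± 0.179 (limma adjusted p = 0.013), and 0.56 without the array that stood apart (adjusted p = 0.0384). On 1425463_at it differed by 0.63 (adjusted p = 0.0225), and by 0.54 without the array (adjusted p = 0.0527). Without batch 3 control replicate 2 both missed (adjusted p = 0.0653 and 0.0852), and without replicate 3 so did 1425463_at (0.121). Nodal 1422057_at, which was 0.83 higher in batch 3 (adjusted p = 0.0755), was called without batch 1 replicate 1 or 3 (0.0364 and 0.0273). Those settings raise the weight of the array that stood apart, and with them 5 and 8 of the 17 probe sets were called, beside 31.1% and 36.6% of all probe sets.

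In MEF controls of batch 2 against batch 1 limma called 0 of 17 probe sets, and 3.4% of all probe sets were called. At an unadjusted p under 0.05 it was 0 of 17, and 13.2% of all probe sets. Eomes 1435172_at differed most, by -0.58 ± 0.299 (adjusted p = 0.437), with groups that did not overlap. For comparison, Eomes differed by -0.95 in MEFs with MyoD and by -0.74 in MEFs labelled NeuroD2, each against the controls of its own batch.

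The effect of MyoD in MEFs minus its effect in P19 cells was tested directly. It differed for Gsc (1.78 ± 0.526, limma adjusted p = 0.0236), Foxa2 (0.74 ± 0.243, adjusted p = 0.0416), Gata4 1418863_at (0.71 ± 0.213, adjusted p = 0.0263) and Cer1 1450257_at (0.74 ± 0.242, adjusted p = 0.0423). For these 4, MyoD went with a lower level or no call in P19 cells and with a higher level or no call in MEFs. In MEF controls all 4 had means below 5.81, the median of all values (Gsc 4.17, Foxa2 5.24, Gata4 5.45 and Cer1 5.68). For Gata4 the mean in P19 controls was below 5.81 too (5.58). Whether low signal limited a fall in MEFs was not tested. The background was 16.4% called and 4.97% higher. A difference between the 2 Eomes effects was not shown (0.28 ± 0.422 on 1435172_at, adjusted p = 0.679). The call was lost for all 4 without MEF control replicate 2 (0.0526 to 0.079) and without P19 MyoD replicate 3 (0.0571 to 0.0985). Without each other array of these 4 groups 0 to 3 of the 4 missed, Cer1 and Foxa2 most often, and without P19 control replicate 3 Sox17 1421657_a_at and Gata4 1418864_at were called as well (0.0268 and 0.0343). Cer1 missed without the P19 control that stood apart (0.57, adjusted p = 0.0721), while Mixl1 (0.81, adjusted p = 0.0197) and Nodal 1422057_at (1.21, adjusted p = 0.0285) were called, and so were 23.7% of all probe sets.

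For NeuroD2 the same test called 0 of 17 probe sets with 8% of all probe sets called. At an unadjusted p under 0.05 it was 1 of 17, and 16.8% of all probe sets. Nodal 1422058_at gave the largest value, 1.04 ± 0.498 (adjusted p = 0.298). Leaving out P19 control replicate 2 of batch 1 called Sox17 1429177_x_at (0.74, adjusted p = 0.0416) among 18.6% of all probe sets, and leaving out batch 3 control replicate 1 called it and Gata6 1425463_at (0.00752 and 0.00942). Leaving out P19 NeuroD2 replicate 1 called Nodal 1422058_at (1.5, adjusted p = 0.0381).

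The effect of MyoD minus that of NeuroD2 in P19 cells was called for 0 of 17 probe sets with 3.78% of all probe sets called. At an unadjusted p under 0.05, 3 of 17 were lower, and 6.19% of all probe sets. MyoD and NeuroD2 were run in different batches, each against its own controls. Eomes 1435172_at gave -1.30 ± 0.422 (adjusted p = 0.104), and -1.73 ± 0.331 without the array that stood apart (adjusted p = 0.00157), where it was the 1 member called and 7.33% of all probe sets were. Foxa2 gave -0.69 ± 0.243 (adjusted p = 0.143) and Gsc -1.24 ± 0.526 (adjusted p = 0.234). Both were called without batch 3 control replicate 1 (adjusted p = 0.0399 and 0.0465), and Foxa2 also without P19 NeuroD2 replicate 3 (0.0313). For Nodal the difference was 0.33 ± 0.498 on 1422058_at (adjusted p = 0.724), so a difference between the factors was not shown there.

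Other genes of the pathway were read by list, with the probe set of highest mean for each gene. Of 24 genes of the Nodal signalling machinery 23 were measured, and Gdf1 was not analysed here. In MEF against P19 controls 11 were lower and 4 higher (median -0.27, against -0.12 over all genes, of which 25.9% were lower and 24.4% higher). The co-receptor Tdgf1 differed by -6.77, Gdf3, a ligand that acts with Nodal, by -5.89, the receptor Acvr2b by -4.28 and the repressor Tgif2 by -2.11 (limma adjusted p = 1.80e-11 at most). With MyoD in P19 cells 1 was higher and 0 lower, the Smad repressor Ski at 0.56 (adjusted p = 0.00118), while 1.88% of all genes were higher and 0.627% lower. Without the P19 control that stood apart, the list had 12 lower and 3 higher in MEF controls and again 1 higher in P19 cells with MyoD. In that fit 30.7% of all genes were lower and 23.7% higher in MEF controls, and 1.86% were higher in P19 cells with MyoD.

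With NeuroD2 in P19 cells Gdf3 fell by 0.86 (adjusted p = 0.00443) and no other gene of that list was called, while 7.82% of all genes were. Without that P19 control, 3 were lower and 1 higher, as Foxh1 (-0.68), Tgif1 (-0.45) and the receptor Acvr2a (0.41) were then called too (adjusted p = 0.0136 at most). In that fit 20.3% of all genes were called. MEFs with MyoD had 4 higher and 4 lower, the 4 lowest p-values belonging to Tgif2 (0.84), the corepressor Drap1 (0.74), the receptor Acvr1b (-0.83) and Trim33, a Smad-binding ubiquitin ligase (-0.58). That is 8 of 23 genes, where 24.4% of all genes were called. MEFs labelled NeuroD2 had 2 higher and 3 lower of 23, where 11.9% of all genes were called, with Tgif1 at -1.12, Acvr1b at -0.88, Skil at -0.60 and the Nodal receptor antagonist Dact2 at 0.66. Without the same control the list had 6 higher and 4 lower in MEFs with MyoD, and 3 higher and 3 lower in MEFs labelled NeuroD2. Of all genes, 39.3% and 25.3% were called in these comparisons in that fit. Between the batches of P19 controls 6 of 23 were higher, Drap1 (0.83), Acvr2b (1.09), Ski (0.50) and Skil (0.77) among them, with 10.2% of all genes higher. Without that control it was 5 higher and 1 lower, where 7.57% of all genes were higher and 8.21% lower.

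The list for primitive streak and early mesoderm had 17 measured genes. In MEF against P19 controls 9 were lower and 1 higher (median -0.52), led by Otx2, a homeodomain factor of the early embryo (-6.85), the growth factors Bmp4 (-2.69), Fgf5 (-3.36) and Fgf8 (-2.24). Without the P19 control that stood apart it was 7 lower and 2 higher (median -0.25), since Mesp1, Msgn1 and Evx1 were no longer called (adjusted p = 0.111 to 0.308) and Cdx2 and Tbx6 were. Of all genes, 30.7% were lower and 23.7% higher in that fit. With MyoD in P19 cells Bmp4 alone was called, from a mean of 8.44 to 6.95 (-1.49, adjusted p = 0.00382). With NeuroD2 in P19 cells Lhx1, a LIM factor of the node that neurons also use, rose from 5.33 to 7.96 (2.63, adjusted p = 1.46e-09) and no other gene was called. MEFs labelled NeuroD2 had Bmp4 at 10.04 against a control mean of 5.94 (4.10 higher) and Tbx6, a T-box factor of paraxial mesoderm, at 1.10 above control, and Snai1 at -1.37 (adjusted p = 0.00471 at most). In MEFs with MyoD limma called 0 of 17. Leaving out that control added calls of Snai1 in P19 cells with MyoD (1.29 higher) and in MEFs with MyoD (0.57 higher), and of Tbx6 in P19 cells with NeuroD2 (0.34 higher).

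The list for endoderm had 19 measured genes. In MEF against P19 controls 10 were lower, such as Trh (-6.64), Epcam (-5.72) and the Wnt antagonist Dkk1 (-1.61), and Dab2, an endocytic adaptor that fibroblasts also express, was higher (3.61). With MyoD in P19 cells the chemokine receptor Cxcr4 was higher by 1.74 (adjusted p = 0.0162), and by 0.96 when the odd P19 control was left out, and no other was called. With NeuroD2 in P19 cells 4 were lower, where 2.89% of all genes were. These were Dab2 (-1.06), the epithelial adhesion molecule Epcam (-1.04), Hhex, a homeodomain factor of anterior endoderm (-0.90), and Foxa3 (-0.65), with adjusted p = 0.00485 to 0.0164. MEFs with MyoD had Cubn, an endocytic receptor, higher (0.70) and Dab2 lower (-1.71). MEFs labelled NeuroD2 had 0 of 19 called by limma. Without the odd control it was 8 lower and 1 higher in MEF controls, 3 higher and 1 lower in MEFs with MyoD (Cxcr4 and Apoa1 added), 4 lower and 1 higher in P19 cells with NeuroD2 (Cxcr4 added), and 2 higher in MEFs labelled NeuroD2 (Foxa1 and Amn). Of all genes, 54.4%, 39.3%, 20.3% and 25.3% were called in these comparisons in that fit, in the same order.

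Of 12 genes of cardiac and lateral mesoderm, which Gata4 and Gata6 also serve, the factor Mef2c was higher by 1.61 in P19 cells with MyoD and by 4.28 in MEFs with MyoD (adjusted p = 0.00219 and 1.24e-10), and it is a target of MyoD in muscle as well. In P19 cells with NeuroD2 Isl1, a LIM factor of heart progenitors and of motor neurons, rose by 2.47 and Wt1, a zinc finger factor of kidney and epicardium, fell by 0.81. In MEFs with MyoD Hand2, a basic helix-loop-helix factor of heart and limb, fell by 0.76. The other genes of that list were not called in these 3 comparisons with all arrays. Without the P19 control that stood apart, Myh6 (0.64) and Wt1 (-0.45) were called in P19 cells with MyoD too (adjusted p = 0.0428 and 0.0488).

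Pluripotency genes, 13 of 14 measured, with Tdh not analysed here, gave 11 lower and 1 higher in MEF against P19 controls (median -3.87). None was called in P19 cells with MyoD (median -0.23) or with NeuroD2 (median -0.27), and L1td1 (-0.87, adjusted p = 0.0481) was called lower with MyoD without the P19 control that stood apart. Of 14 fibroblast and mesenchyme genes all were higher in MEF controls (median 5.92), 1 was lower in P19 cells with MyoD (Col1a1, -1.33, adjusted p = 0.0221), and 11 were lower in MEFs with MyoD (median -1.69). Without that control 4 were lower in P19 cells with MyoD, namely Fn1, Lum, Pdgfrb and Postn (-1.44 to -0.69), and Col1a1 missed (-1.09, adjusted p = 0.0669). It was 12 lower in MEFs with MyoD. Of all genes, 1.58% were lower in P19 cells with MyoD and 21.9% in MEFs with MyoD in that fit.

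The genes most like a member were found by Pearson correlation over the 11 P19 arrays other than the one that stood apart, as a description over arrays that share groups and batches. Eomes was most like Car2, Il17rd and Sgk1 (r = 0.980, 0.979 and 0.972). Gsc was most like Pmepa1, Emb and Lox (r = 0.967 for each). Foxa2 was most like Gsc itself (r = 0.960), then Pmepa1 and Emb (0.951 and 0.947), and Mixl1 was most like Rab13 (0.932), Foxa2 (0.887) and Btla (0.879). Nodal was most like Lbr, Prss55 and Lnx2 (0.964, 0.958 and 0.958), Lefty1 like Polr1b, Fanci and Dph3 (0.965, 0.958 and 0.956), and Gata6 like Unc45a, Sephs2 and Spry4 (0.965, 0.950 and 0.929). Over the 12 MEF arrays Eomes was most like Phf6 (0.960), Gsc like Cryl1 (0.984), Gata4 like Klhl21 (0.925) and Gata6 like Zfp458 (0.936). A member was matched only where its leading probe set spanned at least 1 log2 unit, which left out Cer1 and Sox17 in both cell types.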

How the data were processed

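RNA of 24 samples was measured on Affymetrix mouse arrays from biotin-labelled cRNA, 3 arrays in each of 8 groups. The table deposited by the authors gives 45101 probe sets as log2 values. The normalization behind them is not stated in the labels, and limma is named, with no version, in the submitters' processing notes. Precision is limited by how many arrays there are.

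The 64 Affymetrix controls were left out, and 45037 probe sets were fitted with limma 3.58.1 in R 4.3.3 as 8 group means, so that all groups share 1 estimate of the spread (16 residual degrees of freedom), with Benjamini-Hochberg adjustment within each comparison and a threshold of 0.05. Errors are standard errors of that fit. Comparisons were made within a batch, between control batches, and between effects. Probe sets were named by the platform's annotation: 34945 had 1 symbol, 932 several and 9160 none. A gene in a list, and the leading probe set of a member, is its brightest one on average. The text names every member, and in each list up to 4 called genes with the lowest p in each comparison.

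The members, the gene lists and the marker lists were chosen with earlier results of these data known. No pairing by replicate number entered the tests. Other normalizations, probe set rules, fits and array omissions were tried. The fit was tested on simulated data. Figures were drawn with matplotlib 3.10.9 under Python 3.11.15.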

Additional observations from a re-analysis of the deposited data

Results flagged for a closer look

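The effect of MyoD differed between MEFs and P19 cells, by a test of the difference itself, for 4 of the 17 probe sets. The effect in MEFs minus that in P19 cells was 1.78 for Gsc (limma adjusted p = 0.0236), 0.74 for Foxa2 (adjusted p = 0.0416), 0.71 for Gata4 1418863_at (adjusted p = 0.0263) and 0.74 for Cer1 1450257_at (adjusted p = 0.0423). Without P19 control replicate 2 of batch 1 these were 1.43, 0.69, 0.58 and 0.57, with adjusted p = 0.0412, 0.0486, 0.039 and 0.0721. Of 22 alternatives the call held in 20 for Gsc, in 16 for Gata4, in 14 for Foxa2 and in 10 for Cer1. The means of these 4 in MEF controls ran from 4.17 (Gsc) to 5.68 (Cer1), below the median of all values (5.81). Gata4 1418863_at rose in MEFs with MyoD (0.56), and its mean in P19 controls was below that median too (5.58). Whether low signal limited a fall in MEFs was not tested. MEFs with MyoD also changed medium and P19 cells did not, so medium and cell type cannot be told apart in this difference.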

How the results depend on the processing

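No member that was called changed direction under any alternative. Of the values of called members under alternatives, 167 of 180 kept their call in MEF against P19 controls, 47 of 68 in P19 cells with MyoD, 42 of 51 in MEFs with MyoD, 25 of 32 between P19 batches and 60 of 88 for the difference of MyoD effects. With each array left out in turn, the called members numbered 9 to 12 for the cell types (12 with all arrays), 0 to 5 for MyoD in P19 cells (4), 1 to 4 for MyoD in MEFs (3), 0 to 2 for NeuroD2 in P19 cells and for the NeuroD2 label in MEFs (0 each), 0 to 8 between P19 batches (2), 0 between MEF batches (0), 0 to 6 for the difference of MyoD effects (4), and 0 to 2 for both other differences (0 each). The cause of these moves was not tested.

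With only the compared groups in the fit, and so fewer arrays behind the spread, MyoD in P19 cells had 0 called members, MyoD in MEFs 7, the NeuroD2 label in MEFs 3, the P19 batches 0 and the MEF batches 2. With arrays weighted by limma's arrayWeights, which stopped before it converged, the counts were 10 for MyoD in P19 cells, 7 for MyoD in MEFs, 5 for NeuroD2 in P19 cells, 3 for the NeuroD2 label, 2 for the MEF batches, 10 for the difference of MyoD effects, 6 for that of NeuroD2 effects and 5 for MyoD against NeuroD2. A second quantile normalization gave 1 for NeuroD2 in P19 cells, 1 for the NeuroD2 label and 1 for MyoD against NeuroD2. Shifting arrays to 1 median gave 2 for the difference of MyoD effects. Leaving out dim probe sets gave 1 for NeuroD2 in P19 cells. For the P19 batches, 1 probe set per gene gave 1 and the mean of a gene's probe sets 0. The array weights nearly removed P19 control replicate 2 of batch 1 (weight 0.000436). For most settings in this section the share of all probe sets called is not given. Counts of members there cannot be set against the rest of the array.

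The samples share only a number: deviations of same-numbered arrays correlated with r = -0.196, 0.152 and 0.314 in P19 cells of batch 1, 0.170, 0.0545 and 0.190 in those of batch 3 (0.0686 at most between different numbers), and 0.00639 to 0.0990 in MEFs, and in batch 3 5 of the 6 P19 arrays correlated best with their own number. The replicate block changed no count by over 1.5 times when it spanned the series (4 for MyoD in P19 cells, 12 for the cell types and 3 for the difference of MyoD effects, where Cer1 had adjusted p = 0.0502). A replicate block within each batch, chosen after seeing the data, gave 2 for MyoD in P19 cells, 2 for NeuroD2 in P19 cells, 1 for the difference of NeuroD2 effects and 1 for MyoD against NeuroD2. Also chosen after seeing the data, leaving out the P19 arrays of batch 3 numbered 1 gave 3 for NeuroD2 in P19 cells, 2 for the difference of NeuroD2 effects and 1 for MyoD against NeuroD2. With controls of the other batch the counts were 7 for MyoD and 1 for NeuroD2 in P19 cells. Signals below the median of all values limit what the second probe sets of Sox17, Gata4 and Cer1 and the third of Gata6 can show. They also limit the leading Sox17 probe set without the array that stood apart, and the leading Gata4 and Mixl1 probe sets in most groups.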
